A study of Mus musculus with 12 samples.

Results

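Amyloid precursor family and secretase genes and a synuclein gene were examined in a list of poly(A) sites (PASs) from mouse hippocampal slices. The 6 genes are *App*, *Aplp1*, *Aplp2*, *Bace1*, *Psen2* and *Sncb*, chosen by their gene symbols, and they hold 14 of the 55813 distinct PASs and make up 6 of the 16627 genes in the list. The set holds a single presenilin gene and a single synuclein gene. The study prepared mini-slices without the dentate gyrus from wild-type C57BL/6 mice, labelled as 3 months old. Chemical LTP was induced with 50 µM forskolin, followed by forskolin together with 30 mM KCl and 10 mM calcium, and control slices from the same animals received 0.2% DMSO. RNA was taken 1 hr or 3 hr later, with 3 libraries in each of the groups Control 1 hr, Control 3 hr, LTP 1 hr and LTP 3 hr, or 12 libraries in all. The 3′ ends of the transcripts were sequenced with 3′READS+, which maps the position at which an RNA was cleaved and polyadenylated.

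The reads of these 12 libraries were not analysed here. The table has 12 columns of read counts whose names, a letter and a number, match no label of a sample, so that no column could be assigned by name to a library. No level, no change after LTP, no replicate error and no library depth is therefore given for the 6 genes, and the hippocampal origin of the libraries was not checked against marker genes. What follows describes where the PASs of these genes lie. A single list serves all libraries, and a listed PAS with few reads counts as much as one with many.

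App is a membrane protein that is cut in sequence by different proteases. Cleavage by the beta-secretase Bace1, followed by cleavage by the gamma-secretase complex, whose catalytic subunit is a presenilin, releases the amyloid beta peptide. Synucleins are small proteins of presynaptic terminals. A gene with more than 1 PAS can make mRNAs with different 3′ ends, and where the PASs stand in tandem in the last exon, the mRNAs share their coding sequence and differ in the length of the 3′UTR. Poly(A) sites in introns can instead shorten the coding sequence.

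The 6 genes fell into those with a single listed PAS and those with tandem listed PASs. In 4 of them, *App*, *Aplp1*, *Aplp2* and *Psen2*, the list held 1 PAS. *Sncb* had 2 PASs and *Bace1* had 8. Over all genes of the list, 32.9% had 1 PAS and the median was 2 PASs per gene. Of the 15075 genes with an exon3 PAS, 50.5% had 1 such PAS. Of the 14 PASs of the 6 genes, 13 carried the label exon3, read here as the last exon, and 1 carried the label exon3ext, read as sequence downstream of that exon. By comparison, exon3 made up 55.7% and exon3ext 6.06% of the 56204 entries, in which a PAS is counted once for each gene it stands under. None of the 14 PASs was listed under a second gene. The genes were chosen with earlier results of these data known, so no test was made of these shares.

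**Figure D1:**
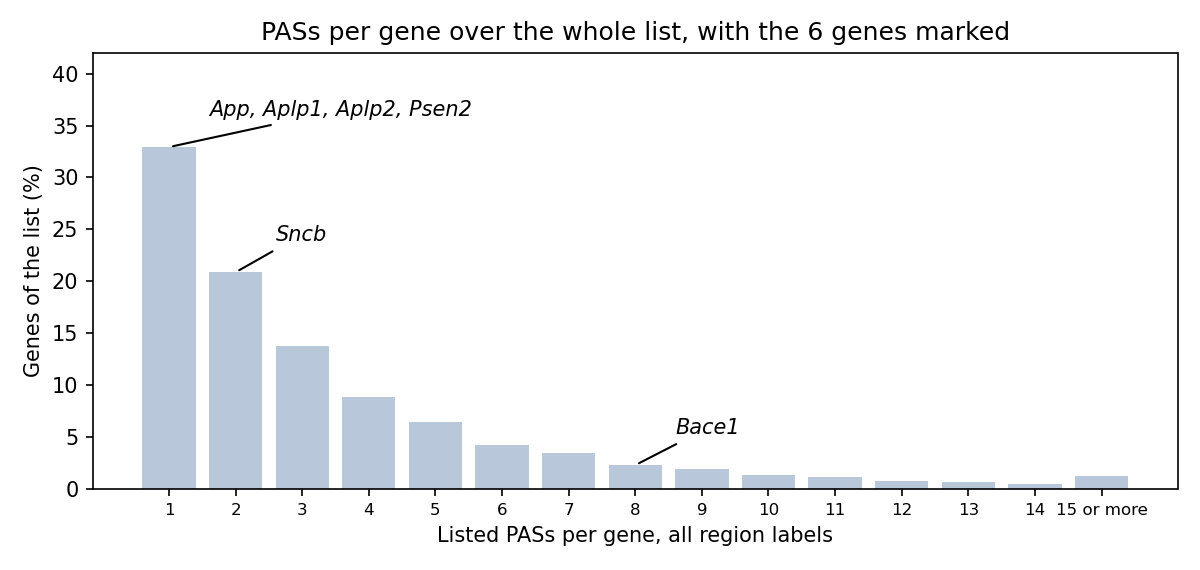
Share of the genes of the list (%, vertical axis) by the number of listed PASs per gene over all region labels (horizontal axis, with 15 or more in the last bar); the 6 genes are marked at their number of PASs. *App*, *Aplp1*, *Aplp2* and *Psen2* stand in the bar of 1 PAS, which holds 32.9% of genes, *Sncb* in the bar of 2 and *Bace1* at 8.

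No intronic PAS was listed for any of the 6 genes, and none had a PAS labelled UA. That label was read here as upstream antisense and is not defined in the sources used here. Intronic PASs were listed for 33.5% of all genes and UA sites for 13.8%. Without an intronic PAS, the comparison of an intronic set with a 3′UTR set, which the study makes for intronic APA, cannot be formed for these genes. Of the 6 genes, *Bace1* and *Sncb* have the pair of exon3 PASs that a comparison of 3′UTR isoforms needs.

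The precursor family was uniform. *App* (ENSMUSG00000022892.11) encodes the precursor of amyloid beta, and its PAS lay on the minus strand of chromosome 16 at position 84954681. *Aplp1* (ENSMUSG00000006651.8) and *Aplp2* (ENSMUSG00000031996.17) encode the related amyloid precursor-like proteins, which lack the amyloid beta sequence. The PAS of *Aplp1* lay on the minus strand of chromosome 7 at 31219999, and that of *Aplp2* on the minus strand of chromosome 9 at 30957142. All 3 PASs were labelled exon3. The pattern of a lone exon3 PAS with no site of another label was found in 4844 genes, or 29.1% of the list. For these genes the list offers no alternative 3′ end. Positions here follow the deposited list, for which the submitters' processing notes name mm9.

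The secretase genes differed from each other. *Psen2* (ENSMUSG00000010609.15) encodes presenilin 2, one of the alternative catalytic subunits of gamma-secretase, and had a single exon3 PAS, at 182157135 on chromosome 1 (minus strand). *Bace1* (ENSMUSG00000032086.12) encodes beta-secretase and had 8 PASs on the plus strand of chromosome 9, a number reached or passed by 1589 genes (9.56% of the list). Of its PASs, 7 were labelled exon3. Among the 15075 genes with an exon3 PAS, 351 (2.33%) had as many or more.

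In the order of transcription, the exon3 PASs of *Bace1* lay at 45669649, 45670084, 45670507, 45670547, 45670646, 45671391 and 45672487. The steps between them were 435, 423, 40, 99, 745 and 1096 nt. The PASs at 45670507, 45670547 and 45670646 thus form a close group, while the last PASs stand far apart. The median step was 429 nt, against 259 nt over the 16203 pairs of neighbouring exon3 PASs of all genes, where the quartiles were 85 and 737 nt. The exon3ext PAS, at 45672960, lay 473 nt beyond the last exon3 PAS. In the 1816 genes with such a pair of labels in this order, the first exon3ext PAS lay a median of 662.5 nt beyond.

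From the first to the last exon3 PAS, *Bace1* spanned 2838 nt. The median span was 817 nt over the 7465 genes with 2 or more exon3 PASs on 1 chromosome, with quartiles of 258 and 1770 nt, and 11.2% of these genes spanned as much as *Bace1* or more. A gene with more PASs has more room to span. Among the 165 genes that also had 7 exon3 PASs, the median span was 2137 nt, the quartiles were 1397 and 3275 nt, and 53 genes (32.1%) had a longer span. *Bace1* therefore stood high in the list by the number of its exon3 PASs and inside the quartiles by their span once that number was held equal.

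**Figure D2:**
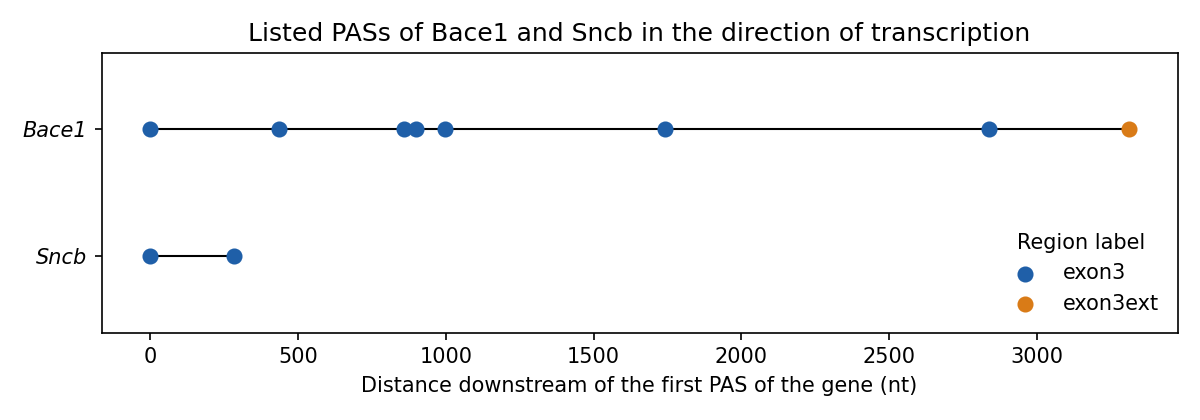
Distance of each listed PAS downstream of the first PAS of its gene (nt, horizontal axis) for *Bace1* and *Sncb*; points are PASs, coloured by region label. The exon3 PASs of *Bace1* reach 2838 nt and its exon3ext PAS 3311 nt, and the exon3 PASs of *Sncb* lie 282 nt apart.

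*Sncb* (ENSMUSG00000034891.13) encodes beta-synuclein. Its PASs were both labelled exon3 and lay on the minus strand of chromosome 13, the proximal one at 54860503 and the distal one at 54860221. They were 282 nt apart. In the 3480 genes with exactly 2 exon3 PASs, the median distance was 356.5 nt, with quartiles of 104 and 1021.25 nt, and 1906 genes (54.8%) had a longer one. The distance in *Sncb* was thus near the middle of such genes.

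A list of 25 other genes was set beside the 6. It includes genes for proteases and subunits that process App, and adaptor genes whose symbols begin with Apba or Apbb. Others encode proteins that degrade amyloid beta or sort App, and the other synucleins. All 25 were in the list of PASs, with 1 to 11 PASs and a median of 3. Of these genes, 10 had 1 PAS and 15 had 2 or more, against 32.9% and 67.1% of all genes. In 13 there were 2 or more exon3 PASs, against 49.5% of all genes with an exon3 PAS. Intronic PASs were listed for 4 of the 25 and for 33.5% of all genes. Among the 10 of the 25 with 1 PAS were *Ncstn*, *Aph1b* and *Psenen*, which encode subunits of gamma-secretase, as *Psen2* does. The most PASs were listed for *Sorl1*, a sorting receptor for App, with 11 PASs of which 8 were intronic and 2 exon3. *Apbb1ip*, which encodes an adaptor protein, followed with 9 PASs, of which 6 were intronic. *Mme* encodes neprilysin, a protease that degrades amyloid beta, and had 8 PASs, the same number as *Bace1*, with 3 labelled exon3 and 5 labelled exon3ext. None of the 25 had as many exon3 PASs as *Bace1*, the highest number being 4, in *Apbb2*, a gene named after its value was seen.

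**Figure D3:**
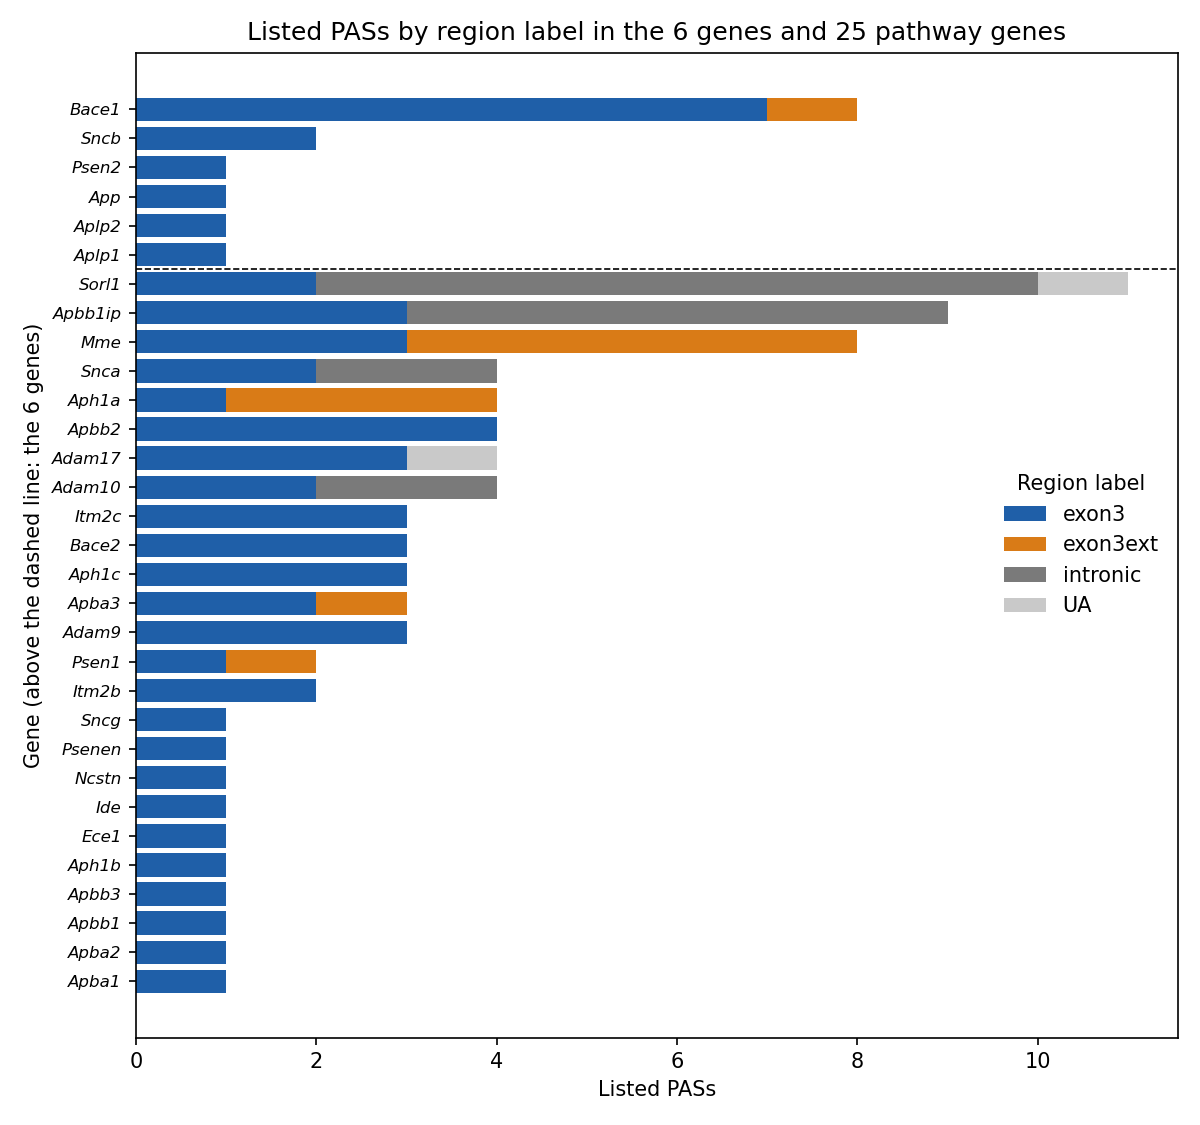
Number of listed PASs (horizontal axis) for each gene, stacked by region label; the 6 genes stand above the dashed line and the 25 other genes below it. *Bace1* has the longest exon3 bar with 7 PASs, and the longest bars below the line, in *Sorl1* and *Apbb1ip*, are mostly intronic.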

How the data were processed

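Libraries were made by the authors with 3′READS+. Per the paper's methods, reads were mapped with bowtie 2, PASs were identified from reads that began with unaligned Ts, and PASs within 24 nt of each other were clustered. The submitters' processing notes name Bowtie2 and mm9. The deposited table gives, for each PAS, its position and strand, the gene it belongs to and a label for the region. The paper names limits on read number and relative abundance for the PASs it counts per library. Whether the deposited list had passed them was not examined, and none was applied here. The list holds 55813 distinct PASs, more than the paper counts in any library, so the PASs counted here need not be that filtered set. Whether positions count from 0 or 1 is not given in the sources used here. The 12 columns of read counts in the deposited table were not used, and the planned edgeR tests were not run, since the column names match no sample.

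PASs were counted per gene and their distances taken in pandas 2.3.3 and numpy 2.4.6 under Python 3.11.15, and plots were drawn in matplotlib 3.10.9. The counting was tested on simulated data. Labels were read as their names say, with intronic meaning a label that begins with intron. All 6 genes matched a symbol of the Ensembl and RefSeq tables. The annotation at hand is GRCm38, where the PASs of 5 of the 6 genes fell outside their gene, so no region label, coordinate or sequence was taken from it. The Ensembl identifiers given for the 6 genes were looked up by symbol.

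The genes and the list of 25 were chosen with earlier results of these data known. All 6 genes were to be named, and of the 25 at most 6, those with the most or fewest PASs.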

Additional observations from a re-analysis of the deposited data

How the results depend on the processing

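All 28 alternative values stayed within 1.5 times the value reported, but many of them could not move. The 6 genes had no UA site and no PAS listed under a second gene. Leaving such sites out could therefore not change their counts or spans. The span of *Bace1* was the only one of the spans to change, from 2838 to 3311 nt when the exon3ext PAS was added, since that PAS lies downstream of the exon3 PASs. Merging PASs 100 nt or less apart left 6 PASs in *Bace1* and 2 in *Sncb*, and could not change the 4 genes with 1 PAS. It raised the share of all genes with 1 PAS from 32.9% to 36.6%, and leaving out UA sites raised it to 35.6%. Adding sites labelled exonI and exon5 to the intronic ones still gave 0 of the 6 genes. No paired analysis was possible because no read-count column could be tied to an animal number. The alternatives for LTP against control (another count test, another filter, each replicate left out) were not run for the same reason.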

Other observations

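The last PASs of *Bace1* stood among those of a neighbouring gene on the opposite strand, a pattern noticed in the list and not planned for. *Rnf214*, which encodes a RING finger protein, is listed with 3 exon3 PASs on the minus strand of chromosome 9, at 45672824, 45672474 and 45672375 in the order of its transcription. The last exon3 PAS of *Bace1*, at 45672487, lay 13 nt from the second of these, and the exon3ext PAS of *Bace1*, at 45672960, lay upstream of all 3 in the direction of *Rnf214*. The outermost PAS of each gene lay past that of the other, with 585 nt between them, so that transcripts ending at these PASs would be complementary over that stretch. An exon3 PAS with another exon3 PAS on the opposite strand within 13 nt was found in 255 of 15075 genes (1.69%), and the median distance was 36314 nt. The distance of a gene was the shortest over its exon3 PASs, so a gene with many of them, such as *Bace1*, has more chances of a near one. The number of exon3 PASs was not held equal here. In the 5 other genes of the set, the nearest exon3 PAS on the opposite strand lay 6234 nt (*Aplp1*) to 90657 nt (*App*) away. How many reads fall on each strand here was not analysed.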
